A study of Homo sapiens with 12 samples.

Results

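The mitochondrial SLC25 carriers are a family of membrane proteins, and 43 genes of the family were described here in BT549 cells, out of 17958 genes measured. The members were all genes whose transcript cluster, the set of probes summarised into 1 value per array, carried a single symbol made of SLC25A and a number. SLC25A44 was left out by that rule. SLC25A32 and SLC25A35 were read by clusters that carry a second gene symbol, and these genes and SLC25A6 are not analysed here. Where a gene had several clusters, which was so for SLC25A33, SLC25A37 and SLC25A51, the brighter cluster by its mean of 12 arrays was used.

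The cells fell into 4 groups of 3 biological replicates. BT549, an established human triple-negative breast cancer line, was transfected with siRNA targeting ERβ2 or with control siRNA and its RNA was taken after 48 h. Other cultures received the pcDNA3 plasmid with flag-tagged ERβ2 cDNA or the empty plasmid (EV), and their RNA was taken after 24 h. All groups are transient transfections of the same line, so no group is an untreated culture, and the control siRNA and EV groups differ in nucleic acid, reagent, cell density and time at once. Which of the siRNA sets went onto the arrays is not stated in the sources used here.

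SLC25 carriers sit for the most part in the inner mitochondrial membrane, which is closed to most solutes, and move nucleotides, phosphate, carboxylic acids, amino acids, cofactors and iron between the cytosol and the matrix. They share a fold in which the same membrane-spanning module is repeated. Through them ATP leaves the matrix in exchange for ADP, citrate leaves for lipid synthesis, reducing equivalents enter by way of the malate-aspartate shuttle, and iron enters for haem and iron-sulfur clusters. Expression was measured on Affymetrix Human Gene 1.1 ST arrays as log2 values (RMA), so a difference of 1 is a doubling. Signals of different clusters are not comparable as transcript levels, and each gene is compared with itself. In bulk RNA, fewer cells that express a gene and less RNA per cell cannot be told apart.

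The arrays carried the marks of a mesenchymal breast cancer line. VIM averaged 12.03 with ERβ2 siRNA and 12.14 with control siRNA, and 12.25 with the ERβ2 plasmid and 12.23 with EV, while the epithelial markers CDH1 and EPCAM lay between 3.78 and 4.07 in the group means. The keratin KRT18, also on the epithelial list, was bright and averaged 11.10 with ERβ2 siRNA and 10.23 with control siRNA (adjusted p = 2.5e-04), and KRT8 averaged 8.30 with ERβ2 siRNA and 7.52 with control siRNA. With CDH1, 3 of the 7 epithelial markers rose after knockdown and 0 fell. The CDH1 change of 0.17 passed narrowly (adjusted p = 0.0997), at a low signal and with siRNA groups that overlapped. Of the 6 mesenchymal markers 2 rose as well, COL1A1 by 0.68 (adjusted p = 2.4e-04) and FN1 by 0.42 (adjusted p = 0.00143), and 0 fell. Their part in the changes of the carriers was not tested. Array medians over all 33297 clusters lay between 5.04 and 5.14. ESR2, which encodes ERβ, gave no check of the siRNA label on these arrays. Its cluster was dim, with a mean of 4.11, and its log2 value was 3.97 ± 0.16 with ERβ2 siRNA and 3.99 ± 0.09 with control siRNA (SD, n = 3 each). With the ERβ2 plasmid it was 4.48 ± 0.21, against 4.01 ± 0.08 with EV (SD, n = 3 each, adjusted p = 0.449). These groups did not overlap, and the unadjusted p by limma was 0.00167. Outside the arrays, the paper reports a fall of ERβ2 mRNA by qPCR after siRNA in BT549 cells. It also reports more ERβ2 protein by Western blot after overexpression. All 8 genes of an interferon response list, the interferon gene IFNB1 among them, were higher with EV than with control siRNA, by 3.29 to 6.81 on the log2 scale. Cells given plasmid and cells given siRNA therefore differed in this response too. After knockdown 1 of the 8 rose, ISG15 by 0.50 (adjusted p = 0.00164), and 0 fell.

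Promoter windows of 3 members are shown because they begin the genes with the largest rise and the largest fall after ERβ2 knockdown and 1 of the iron carriers. The sequences are from RefSeq, build GRCh38.p14, and run 5′ to 3′ from 250 bases before to 50 bases after the annotated start. Capitals mark the GC box GGGCGG on either strand, the core of an SP1 site. SLC25A15 lies at chr13:40789361-40789660 on the plus strand and its window held 5 GC boxes. SLC25A40 lies at chr7:87876311-87876610 on the minus strand and its window held 2. SLC25A28 lies at chr10:99620390-99620689 on the minus strand and its window held 2.
SLC25A15: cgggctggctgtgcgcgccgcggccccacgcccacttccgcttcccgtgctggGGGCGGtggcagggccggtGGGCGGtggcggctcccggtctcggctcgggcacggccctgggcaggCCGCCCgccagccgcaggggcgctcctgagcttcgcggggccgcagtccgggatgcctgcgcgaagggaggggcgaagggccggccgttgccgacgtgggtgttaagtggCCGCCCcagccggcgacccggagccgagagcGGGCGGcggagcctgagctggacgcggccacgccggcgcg
SLC25A40: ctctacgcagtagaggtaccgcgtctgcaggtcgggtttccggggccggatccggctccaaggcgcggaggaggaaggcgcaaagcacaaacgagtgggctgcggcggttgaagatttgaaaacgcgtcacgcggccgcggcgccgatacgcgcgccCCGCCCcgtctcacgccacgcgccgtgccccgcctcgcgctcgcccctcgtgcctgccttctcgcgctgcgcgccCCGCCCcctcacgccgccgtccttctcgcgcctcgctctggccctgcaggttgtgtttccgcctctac
SLC25A28: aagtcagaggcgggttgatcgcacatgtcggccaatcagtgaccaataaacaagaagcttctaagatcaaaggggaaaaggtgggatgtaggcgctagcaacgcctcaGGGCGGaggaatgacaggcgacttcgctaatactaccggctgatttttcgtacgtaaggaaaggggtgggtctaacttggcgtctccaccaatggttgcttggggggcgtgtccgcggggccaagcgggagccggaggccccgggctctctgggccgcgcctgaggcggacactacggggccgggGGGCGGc

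Windows of 38 of the 43 members were found in the RefSeq table and were searched on both strands for 11 sequence motifs. The GC box stood in 26 of the 38 windows (68.4%), against 44.6% of the windows of all 27305 genes with a RefSeq window. That set is larger than the 17958 genes measured and was not matched to the carriers. The shares of all windows given here are therefore no like-for-like background. The GC box stood in all 10 windows of the members that fell after knockdown. Of the 8 that rose, 5 had a window, and 4 of these held it. The complete palindromic estrogen response element was in none of the 38 windows and in 0.0659% of all windows, while its single arm GGTCA was in 34.2% of the members' windows and in 37.7% of all. CCGGAAG, an ETS motif bound by GABPA, was in 21.1% of the members' windows and 10.7% of all, CACGTG, an E-box, in 18.4% and 7.43%, and CCAAT in 44.7% and 35.7%. The palindromic NRF1 motif, the AP-1 motif TGANTCA and the core of the interferon-stimulated response element were in none of the members' windows, against 1.36%, 7.76% and 3.65% of all. The hypoxia core ACGTGC and the ATF4 motif TGATGNAA were in 1 window each, those of SLC25A46 and SLC25A11. These matches describe letters in short windows, and binding was not measured.

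After ERβ2 knockdown the carriers moved in both directions. Of the 43 genes, 8 rose and 10 fell, with an adjusted p not above 0.1, and 25 did not pass (limma, Benjamini-Hochberg adjustment across the 17958 genes). Among all genes 18.3% rose and 17.5% fell, so the share of carriers that rose (18.6%) was near the background and the share that fell (23.3%) was above it, a difference that was not tested. In either direction 18 carriers passed (41.9%), against 35.8% of all genes. An unadjusted p under 0.05 was found for 18 carriers, against 39.7% of all genes, and the siRNA groups did not overlap for 20 carriers (46.5%), against 42.4% of all genes. The median log2 change was −0.06 over the carriers and −0.03 over all genes. At a fold change of at least 1.5, SLC25A15, SLC25A26 and SLC25A30 were upregulated, against 3.25% of all genes, and SLC25A40 and SLC25A14 were repressed, against 1.26% of all genes. When each array was centred on its own median over the 17958 genes, 8 carriers rose and 21 fell, with 2290 and 6157 of all genes.

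**Figure D1:**
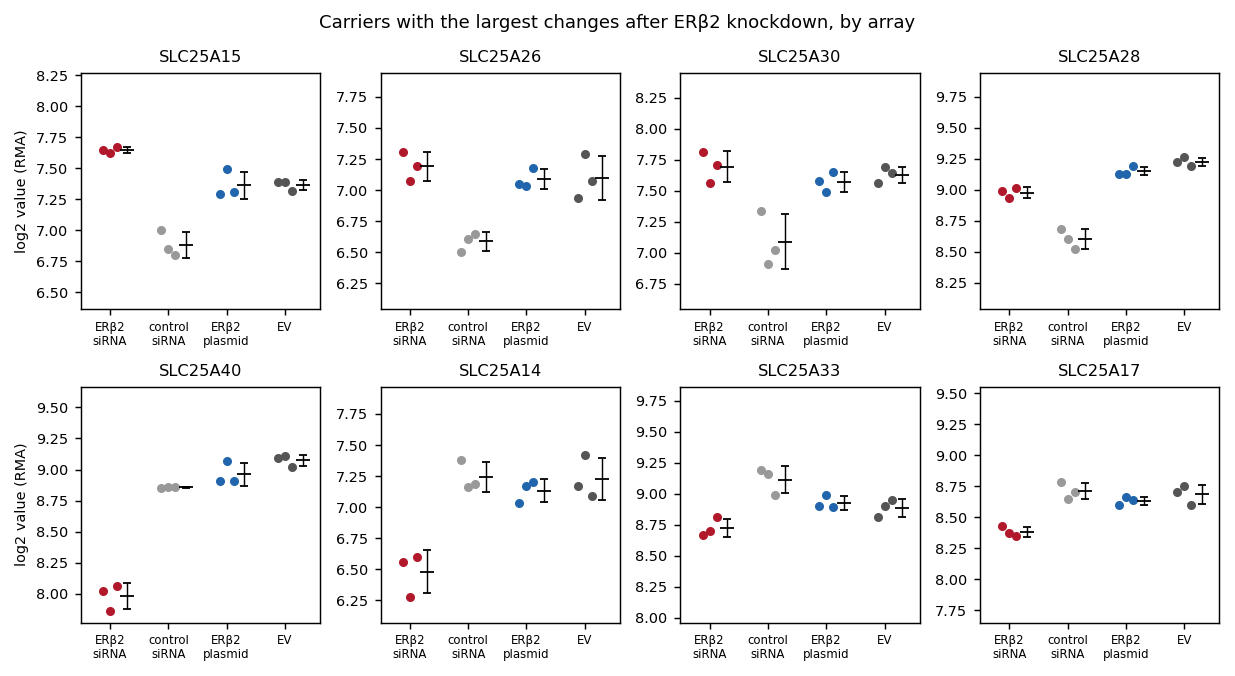
Log2 values (RMA) of 8 carriers on each array in the 4 groups, with 3 points per group and the group mean ± SD beside them (n = 3). Each panel spans the same height on the log2 scale. The ERβ2 siRNA arrays of SLC25A40, SLC25A14 and SLC25A17 lay below all other arrays, and the control siRNA arrays of SLC25A15, SLC25A26, SLC25A30 and SLC25A28 lay below all other arrays.

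The counts by group of carriers stand beside 18.3% of all genes that rose after knockdown and 17.5% that fell. Among the carriers of amino acids and glutathione, 2 of 10 rose and 1 fell. SLC25A15, which exchanges ornithine and citrulline for the urea cycle, had the largest rise of the family. Its log2 value was 7.65, 7.62 and 7.67 with ERβ2 siRNA, against 7.0, 6.85 and 6.8 with control siRNA. The ERβ2 siRNA arrays were the highest of all 12 and the control siRNA arrays were the lowest. The log2 change was 0.76 (standard error, SE, 0.07; 95% confidence interval 0.61 to 0.91), or 1.70-fold (adjusted p = 9.0e-05). With the ERβ2 plasmid SLC25A15 had values of 7.29, 7.49 and 7.31, against 7.39, 7.39 and 7.32 with EV, so both plasmid groups lay between the siRNA groups and overlapped each other.

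SLC25A40, a carrier of glutathione, the main thiol antioxidant of the matrix, had the largest fall. Its log2 value was 8.02, 7.86 and 8.06 with ERβ2 siRNA, against 8.85, 8.86 and 8.86 with control siRNA. The control arrays were within 0.01 of each other, and all 3 ERβ2 siRNA arrays lay below every other array of the series. The log2 change was −0.88 (SE 0.07, 95% confidence interval −1.03 to −0.73, adjusted p = 4.8e-05), 0.545 of the control level. Values of 8.91, 9.07 and 8.91 with the ERβ2 plasmid overlapped those of 9.09, 9.11 and 9.02 with EV. SLC25A39, its close relative and also a glutathione carrier, averaged 10.40 ± 0.03 with ERβ2 siRNA and 10.30 ± 0.10 with control siRNA (SD, n = 3 each), a difference of 0.10 that missed the threshold (95% confidence interval −0.05 to 0.25, adjusted p = 0.280).

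The aspartate-glutamate carriers SLC25A12 and SLC25A13, which serve the malate-aspartate shuttle, had unlike values. SLC25A13 (citrin) had log2 values of 10.08, 10.02 and 10.02 with ERβ2 siRNA, above those of 9.86, 9.73 and 9.77 with control siRNA and above every plasmid array. It rose by 0.25 (SE 0.06, adjusted p = 0.0127). SLC25A12 (aralar) had values of 8.28, 8.14 and 8.18 with ERβ2 siRNA, overlapping those of 8.45, 8.2 and 8.23 with control siRNA, and its change of −0.09 did not pass (95% confidence interval −0.27 to 0.09, adjusted p = 0.418). The other members of the group were SLC25A2 and SLC25A29, carriers of basic amino acids, SLC25A18 and SLC25A22, carriers of glutamate, and SLC25A38, which brings glycine in for haem synthesis. Their changes ran from −0.17 for SLC25A22 to 0.00 for SLC25A2, and none passed.

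Both iron carriers rose. SLC25A28 (mitoferrin 2) had log2 values of 8.99, 8.93 and 9.01 with ERβ2 siRNA, against 8.68, 8.6 and 8.52 with control siRNA. SLC25A37 (mitoferrin 1), best known from red blood cell precursors, had values of 10.16, 10.13 and 10.23 with ERβ2 siRNA, against 9.88, 9.83 and 9.84 with control siRNA. In neither gene did the groups overlap. The log2 changes were 0.38 (SE 0.06, adjusted p = 0.00248) and 0.32 (SE 0.06, adjusted p = 0.00304), and a second cluster of SLC25A37 gave 0.46 (adjusted p = 6.6e-04). On the plasmid arrays both stood higher still. SLC25A28 averaged 9.15 ± 0.03 with the ERβ2 plasmid and 9.22 ± 0.04 with EV (SD, n = 3 each). SLC25A37 averaged 10.42 ± 0.04 with the ERβ2 plasmid and 10.43 ± 0.03 with EV (SD, n = 3 each).

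The carriers related to the uncoupling proteins split. SLC25A14, abundant in brain and named a brain carrier, had log2 values of 6.56, 6.28 and 6.6 with ERβ2 siRNA, against 7.38, 7.16 and 7.19 with control siRNA. All 3 lay below every other array, with 7.03, 7.17 and 7.2 with the ERβ2 plasmid and 7.17, 7.42 and 7.09 with EV. The log2 change was −0.76 (SE 0.10, adjusted p = 7.1e-04), 0.589 of the control level. SLC25A30, described as a kidney mitochondrial carrier, had values of 7.81, 7.56 and 7.71 with ERβ2 siRNA, against 7.34, 6.91 and 7.02 with control siRNA. It rose by 0.60 with a wider error than the other rises (SE 0.11, adjusted p = 0.00499). SLC25A27, a dim cluster with a mean of 4.78, changed by 0.08, which did not pass (adjusted p = 0.368).

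Among the carriers of cofactors, nucleotides and acylcarnitines, 2 of 9 rose and 5 fell, where 18.3% of all genes rose and 17.5% fell. The difference from all genes was not tested. The falls of SLC25A36, SLC25A51 and SLC25A52 were small and depended on the setting or the cluster, as given below. SLC25A26, which brings the methyl donor S-adenosylmethionine into the matrix, had log2 values of 7.31, 7.07 and 7.19 with ERβ2 siRNA, against 6.5, 6.61 and 6.65 with control siRNA. The groups did not overlap, and the rise of 0.60 (SE 0.08, 1.52-fold, adjusted p = 6.4e-04) was just past the fold cut-off. SLC25A16, a carrier linked to coenzyme A, had values of 6.65, 6.46 and 6.58 with ERβ2 siRNA, against 6.31, 6.31 and 6.34 with control siRNA, and rose by 0.24 (adjusted p = 0.0219).

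SLC25A33 and SLC25A36 carry pyrimidine nucleotides for mitochondrial DNA and RNA synthesis, and both fell. SLC25A33 had log2 values of 8.67, 8.7 and 8.81 with ERβ2 siRNA, against 9.19, 9.16 and 8.99 with control siRNA, a change of −0.39 (SE 0.07, adjusted p = 0.00478), and a second cluster of the gene gave −0.41 (adjusted p = 0.00284). SLC25A36 had values of 8.18, 8.01 and 8.19 with ERβ2 siRNA, against 8.33, 8.37 and 8.22 with control siRNA. Its change of −0.18 passed narrowly (adjusted p = 0.0968). It did not pass with the replicate number as a block (adjusted p = 0.129), nor without any 1 of 5 arrays (adjusted p from 0.119 to 0.256), and it did pass without control siRNA replicate 3.

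SLC25A17, a carrier of the peroxisome rather than the mitochondrion, had log2 values of 8.43, 8.37 and 8.35 with ERβ2 siRNA, against 8.78, 8.65 and 8.7 with control siRNA. It fell by 0.33 (SE 0.06, adjusted p = 0.00403), and its ERβ2 siRNA arrays lay below all others. SLC25A51, the NAD carrier, had values of 9.06, 9.1 and 9.07 with ERβ2 siRNA, against 9.26, 9.27 and 9.25 with control siRNA, a change of −0.18 (adjusted p = 0.0285), while its second cluster gave −0.15 and did not pass (adjusted p = 0.192). SLC25A52, a closely related gene, had values of 4.1, 4.21 and 3.99 with ERβ2 siRNA, against 4.23, 4.37 and 4.4 with control siRNA, a change of −0.23 in a dim cluster (adjusted p = 0.0513). The call was lost after cyclic loess (adjusted p = 0.118), after a new quantile normalization (0.148) and without control siRNA replicate 2 (0.133) or 3 (0.145) or ERβ2 siRNA replicate 1 (0.112) or 3 (0.168). Since these genes are near copies, their signals may be shared between clusters. SLC25A20, which brings acylcarnitines in for fatty acid oxidation, and SLC25A42, a carrier of coenzyme A, had changes of 0.04 and −0.13 that did not pass.

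Among the carriers of adenine nucleotides and phosphate, 2 of 8 fell by small amounts and none rose. SLC25A3, the phosphate carrier that feeds ATP synthase, had log2 values of 10.69, 10.7 and 10.7 with ERβ2 siRNA, against 10.93, 10.9 and 10.91 with control siRNA. The change was −0.22 (SE 0.05, adjusted p = 0.0135). SLC25A5, the ATP/ADP exchanger of dividing cells, had values of 12.6, 12.6 and 12.62 with ERβ2 siRNA, against 12.82, 12.78 and 12.79 with control siRNA, a change of −0.19 (adjusted p = 0.0248). It did not pass after a new quantile normalization (−0.11, adjusted p = 0.149). SLC25A4, the exchanger of heart and skeletal muscle, had values of 8.29, 8.32 and 8.41 with ERβ2 siRNA, against 8.47, 8.49 and 8.41 with control siRNA, so the groups met at 8.41, and its change of −0.12 did not pass (adjusted p = 0.175). It passed after a new quantile normalization (adjusted p = 0.0793) and after centring on array medians (0.0561). The calcium-regulated carriers of ATP-Mg and phosphate SLC25A23, SLC25A24 and SLC25A25, their relative SLC25A41 and the testis exchanger SLC25A31 had changes from −0.09 to 0.16, and none passed.

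Among the carriers of di- and tricarboxylates, SLC25A1 rose, SLC25A10 fell and SLC25A11 and SLC25A21 did not pass. SLC25A1, which exports citrate for fatty acid and sterol synthesis, had log2 values of 10.22, 10.16 and 10.13 with ERβ2 siRNA, against 9.86, 9.86 and 9.88 with control siRNA, and all ERβ2 siRNA arrays lay above the other 9. It rose by 0.30 (SE 0.05, 1.23-fold, adjusted p = 0.00363). SLC25A10, the dicarboxylate carrier, had values of 8.66, 8.51 and 8.46 with ERβ2 siRNA, against 8.85, 8.65 and 8.78 with control siRNA, and the groups overlapped. The change of −0.22 passed (adjusted p = 0.0682) but did not without ERβ2 siRNA replicate 2 (0.150) or 3 (0.204), or without control siRNA replicate 1 (0.165) or 3 (0.153). SLC25A11, the oxoglutarate-malate carrier, had a change of −0.12 (adjusted p = 0.131) although its groups did not overlap. None of the 7 members with another or a little known substrate passed (SLC25A34, SLC25A43, SLC25A45, SLC25A46, SLC25A47, SLC25A48 and SLC25A53), and their changes ran from −0.26 for SLC25A48 to 0.12 for SLC25A46.

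**Figure D2:**
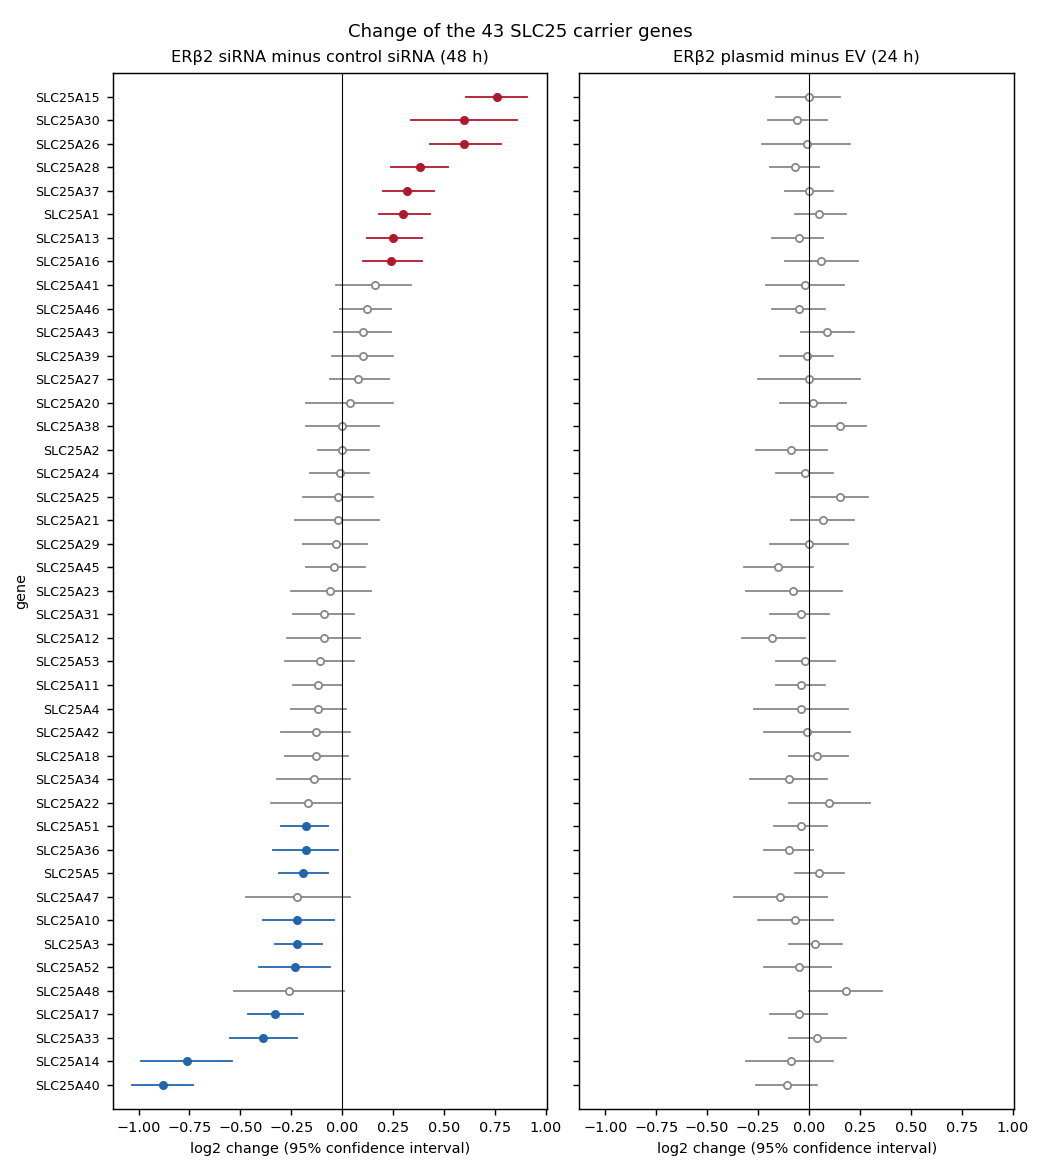
Log2 change of each of the 43 carriers with its 95% confidence interval, for ERβ2 siRNA minus control siRNA (left) and ERβ2 plasmid minus EV (right), n = 3 arrays per group. Filled points had an adjusted p not above 0.1 and open points a higher one. On the left 8 carriers lay higher and 10 lower, and on the right no carrier passed.

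No carrier passed the test with the ERβ2 plasmid. Of the 43 genes, 0 rose and 0 fell against EV by limma at an adjusted p of at most 0.1, where 0.0111% of all genes rose and 0% fell. The methods' t-test and a fit over all 4 groups gave 0 carriers as well, and 4 of the 43 had an unadjusted p under 0.05, a share of 9.3%, against 7.02% of all genes. Groups without overlap were seen for 5 of the 43 carriers (11.6%), against 12% of all genes. The log2 changes ran from −0.18 to 0.18, with a median of −0.02, and the lowest and highest limits of their 95% confidence intervals were −0.37 for SLC25A47 and 0.36 for SLC25A48.

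The 5 carriers with the smallest p with the ERβ2 plasmid were SLC25A12, SLC25A38, SLC25A25, SLC25A48 and SLC25A45. SLC25A12 had log2 values of 7.92, 7.87 and 7.97 with the ERβ2 plasmid, against 8.0, 8.2 and 8.09 with EV, a change of −0.18 (95% confidence interval −0.33 to −0.02, adjusted p = 0.675). SLC25A38 had 8.19, 8.25 and 8.19 with the ERβ2 plasmid, against 8.1, 8.11 and 7.98 with EV, a change of 0.15 (adjusted p = 0.675). SLC25A25 had 6.67, 6.66 and 6.78 with the ERβ2 plasmid, against 6.58, 6.6 and 6.49 with EV, a change of 0.15 (adjusted p = 0.682). In these 3 genes the groups did not overlap, but such separation was no more frequent among the carriers than among all genes. SLC25A48 had 5.29, 5.25 and 5.37 with the ERβ2 plasmid, against 5.27, 5.0 and 5.1 with EV (change 0.18, adjusted p = 0.711), and SLC25A45 had 5.29, 5.39 and 5.15 with the ERβ2 plasmid, against 5.39, 5.51 and 5.39 with EV (change −0.15, adjusted p = 0.747). Both overlapped.

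Knockdown and overexpression effects were set against each other in 1 fit of the 12 arrays. The difference, taken as the knockdown effect minus the overexpression effect, passed at an adjusted p of at most 0.1 for 14 of the 43 carriers. Of these it was above 0 for 7 and below 0 for 7. Among all genes 15% passed above 0 and 11.3% below. An opposite response to lowered and raised ERβ2 would also enlarge this difference, so a pass says only that the 2 changes were unequal. SLC25A40 had a difference of −0.77 (SE 0.09, adjusted p = 8.1e-05) and SLC25A15 one of 0.77 (SE 0.09, adjusted p = 1.1e-04). SLC25A14 had −0.67 (SE 0.15) and SLC25A30 had 0.66 (SE 0.14). With the ERβ2 plasmid the same genes had differed from EV by −0.11, 0.00, −0.09 and −0.06, and none had passed. At a fold of at least 1.5 as well, 3 differences passed above 0 and 2 below, against 4.04% and 1.46% of all genes. An unadjusted p under 0.05 was found for 17 carriers (39.5%), against 32.4% of all genes. When the arrays were centred on their medians, 6 differences passed above 0 and 15 below, with 1806 and 4834 of all genes. After a new quantile normalization 7 passed above and 11 below, with 2512 and 2506 of all genes. Cyclic loess also gave 7 above and 11 below, with 2748 and 2205 of all genes.

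**Figure D3:**
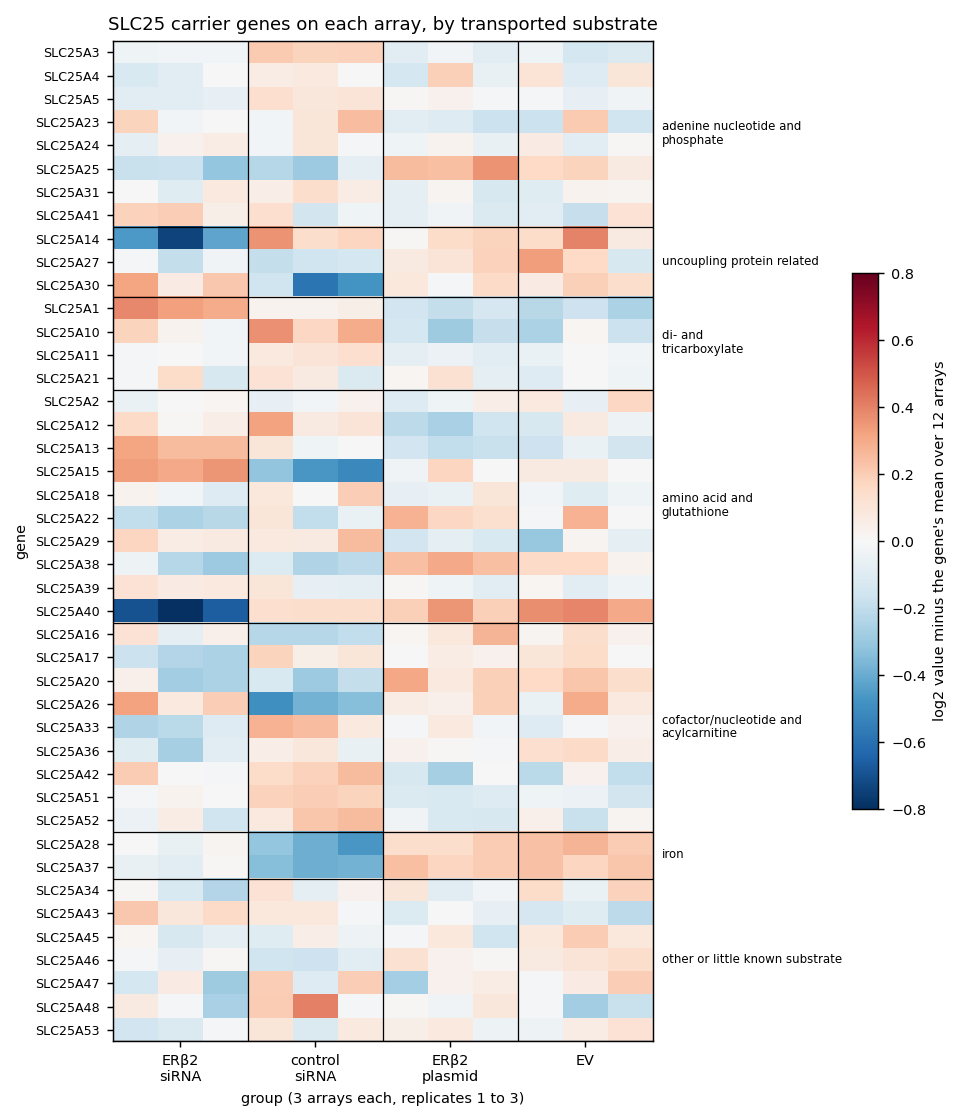
Log2 value of each of the 43 carriers on each of the 12 arrays minus the gene's own mean over the 12 arrays, in rows grouped by transported substrate and columns grouped by transfection. Red is above and blue below the gene's mean. SLC25A40 and SLC25A14 are blue on the ERβ2 siRNA arrays, and SLC25A15, SLC25A30, SLC25A26, SLC25A28 and SLC25A37 are blue on the control siRNA arrays.

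The empty plasmid and the control siRNA are both controls, and the carriers differed between them. With EV, 12 carriers were higher and 11 were lower than with control siRNA (adjusted p not above 0.1), against 19.2% and 22.4% of all genes. In either direction this made 23 carriers (53.5%), against 41.6% of all genes. An unadjusted p under 0.05 was found for 24 carriers (55.8%), against 44% of all genes, and the groups did not overlap for 27 (62.8%), against 47.2%. Time after transfection, reagent, cell density and nucleic acid cannot be told apart in this comparison, and the genes of the interferon response list moved with it as given above. Of the 6 mesenchymal markers 4 were higher with EV, led by COL1A1 (1.40) and FN1 (0.63), and of the 7 epithelial markers 4 were lower, with KRT19 at −0.95, KRT18 at −0.89 and KRT8 at −0.59. CD14, on the list of blood and immune markers, was higher by 0.94. The part of these genes in the changes of the carriers was not tested. The iron carriers had the widest rises. SLC25A28 had log2 values of 9.22, 9.26 and 9.19 with EV, against 8.68, 8.6 and 8.52 with control siRNA, a change of 0.62 (SE 0.06, adjusted p = 1.8e-04). SLC25A37 had 10.45, 10.39 and 10.44 with EV, against 9.88, 9.83 and 9.84 with control siRNA, a change of 0.58 (SE 0.06, adjusted p = 1.4e-04). By the clusters used here, 1 carrier, SLC25A28, was past 1.5-fold, and the second cluster of SLC25A37 gave a larger change of 0.81 (adjusted p = 6.8e-05). The background was 5.57% of all genes higher at that fold and 1.3% lower.

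SLC25A30, SLC25A26 and SLC25A15 were also higher with EV, by 0.54, 0.51 and 0.48. SLC25A30 had 7.56, 7.69 and 7.64 with EV, against 7.34, 6.91 and 7.02 with control siRNA. The carnitine-acylcarnitine carrier SLC25A20 was higher by 0.37 and SLC25A25 by 0.34, and neither had passed after knockdown. The lower carriers were led by SLC25A10, with 8.23, 8.5 and 8.31 with EV, against 8.85, 8.65 and 8.78 with control siRNA, a change of −0.41 (adjusted p = 0.00761). SLC25A48 had 5.27, 5.0 and 5.1 with EV, against 5.48, 5.68 and 5.27 with control siRNA (change −0.35, adjusted p = 0.0415), and the groups met at 5.27. This call was lost without control siRNA replicate 2 (−0.25, adjusted p = 0.126), without EV replicate 2 (0.107) and by the methods' t-test (0.160). SLC25A42 had 6.23, 6.48 and 6.25 with EV, against 6.59, 6.63 and 6.7 with control siRNA (change −0.32, adjusted p = 0.0171). With the arrays centred on their medians, 8 carriers were higher and 20 lower, where 2211 and 10301 of all 17958 genes were. Without control siRNA replicate 2, 5 carriers were lower, with 3042 of all genes.

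This comparison and the knockdown comparison share the control siRNA arrays, so their changes are not independent and are given side by side. SLC25A15 had 0.76 after knockdown and 0.48 with EV, SLC25A26 had 0.60 and 0.51, SLC25A30 had 0.60 and 0.54, SLC25A28 had 0.38 and 0.62, and SLC25A37 had 0.32 and 0.58. In 7 carriers all 3 control siRNA arrays lay below the other 9 arrays (SLC25A15, SLC25A16, SLC25A26, SLC25A28, SLC25A30, SLC25A37 and SLC25A46) and in 5 they lay above them (SLC25A3, SLC25A5, SLC25A11, SLC25A51 and SLC25A52). Over all 17958 genes this was so for 9.67% and 8.71%. The ERβ2 siRNA arrays lay above the other 9 for SLC25A1, SLC25A13, SLC25A15 and SLC25A43, and below them for SLC25A14, SLC25A17, SLC25A36 and SLC25A40, where 1801 and 1230 of all genes did so. SLC25A1 and SLC25A40 had values of opposite sign after knockdown and with EV. SLC25A1 had 0.30 after knockdown and −0.25 with EV, and SLC25A40 had −0.88 after knockdown and 0.22 with EV. The EV value of SLC25A40 was 0.06 and did not pass when the arrays were centred on their medians (adjusted p = 0.429).

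**Figure D4:**
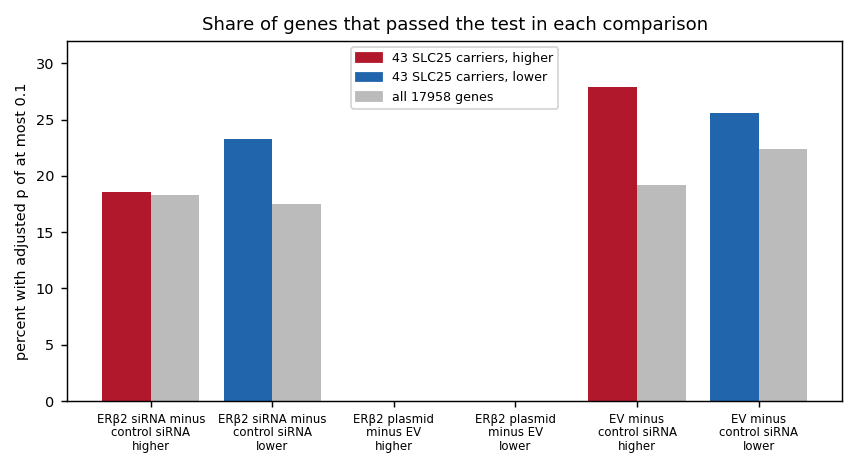
Percent of the 43 carriers (red higher, blue lower) and of all 17958 genes (grey) that passed limma at an adjusted p of at most 0.1 in 3 comparisons, n = 3 arrays per group. The carriers stood at 18.6% and 23.3% after ERβ2 knockdown, at 0% with the ERβ2 plasmid and at 27.9% and 25.6% for EV against control siRNA.

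Genes that work with the carriers were read from lists of known partners. Their counts stand beside 18.3% of all genes that rose after knockdown and 17.5% that fell, 35.8% in either direction. No list was tested against these shares. Of 13 genes of mitochondrial iron, haem and iron-sulfur synthesis, 1 rose and 4 fell after knockdown. GLRX5, a glutaredoxin of iron-sulfur assembly, fell by 1.01 on the log2 scale (SE 0.22, adjusted p = 0.00932). Its arrays were widely spread, at 8.56 ± 0.38 with ERβ2 siRNA and 9.57 ± 0.37 with control siRNA (SD, n = 3 each). FECH, which inserts iron into haem, had −0.58 (SE 0.07). PPOX, an enzyme just before FECH, had −0.27 in a dim cluster with a mean of 4.98. Of 16 other transporters of the mitochondrial membranes, 6 rose and 3 fell. ABCB10, which in mouse cells stabilises mitoferrin 1, rose by 0.96 (SE 0.07, adjusted p = 4.0e-05) and was also higher with EV than with control siRNA, by 0.77. SFXN3, a sideroflexin, rose by 0.63 (SE 0.06), while SFXN1, a serine carrier, rose by 0.36 and SFXN2 fell by 0.36. With EV against the same control siRNA arrays, GLRX5 had −0.74, FECH −0.43, PPOX −0.30, SFXN3 0.46 and SFXN2 −0.53, and all passed. GLRX5 passed narrowly (adjusted p = 0.0957) and its groups overlapped. Its values were 9.19, 8.07 and 9.23 with EV, against 9.14, 9.81 and 9.76 with control siRNA. SFXN1 had 0.09 there and did not pass.

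Of 8 enzymes of mitochondrial folate and one-carbon metabolism, 3 rose and 3 fell. For this list and those that follow, the background was again 18.3% of all genes higher and 17.5% lower. ALDH1L2, which oxidises formyl-tetrahydrofolate, rose by 1.16 (SE 0.09, adjusted p = 5.3e-05), MTHFD1L, a formate-releasing enzyme, by 0.43, and GLDC of the glycine cleavage system had −0.41. Of 13 shuttle and citrate enzymes, 4 rose and 2 fell, led by malic enzyme ME1 (0.36) and the transaminase GOT1 (−0.36). Of 8 genes of ornithine, proline and glutamate metabolism, PYCR1 (0.27), which makes proline, and OAT (0.23), which uses ornithine, rose and none fell. Of 12 genes of carnitine and fatty acid oxidation, 2 rose and 2 fell, with ETFDH, an electron donor to the respiratory chain, at 0.51 and ACADS, a dehydrogenase of short chains, at −0.36. None of 11 genes of the carrier import machinery passed, nor did any of 5 carrier-fold proteins with other symbols, the uncoupling proteins UCP1, UCP2 and UCP3 and the outer membrane proteins MTCH1 and MTCH2. Of 11 regulators of mitochondrial genes, PPARGC1A, the coactivator PGC-1α, rose by 1.06 (SE 0.11, adjusted p = 2.0e-04) in a dim cluster with a mean of 4.93, and ESRRA, a nuclear receptor that it binds, had −0.93 (SE 0.10, adjusted p = 2.2e-04). With the ERβ2 plasmid none of the genes on these lists passed. With EV against control siRNA, several passed in the direction seen after knockdown. These were ALDH1L2 (0.51), ME1 (0.67), GOT1 (−0.20), OAT (0.18), PPARGC1A (0.38) and ESRRA (−0.28). PYCR1 (−0.32) and ETFDH (−0.25) passed in the other direction, and MTHFD1L, GLDC and ACADS did not pass. Both comparisons share the control siRNA arrays, so these changes are not independent.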

How the data were processed

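RNA of 12 BT549 cultures was measured on Human Gene 1.1 ST arrays (Affymetrix), 3 per group. The authors deposited log2 values with 2 decimals, made by RMA in the Affymetrix Expression Console (background correction, normalization between arrays, summary per transcript cluster). The log base is not stated and was taken as 2, and the software version and genome build are not given in the sources used here. RMA values hold no detection call, and the number of arrays limits the precision.

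Of 33297 clusters, 19181 had 1 symbol in the platform annotation, 2055 had several and 12061 were not listed, which left 17958 genes. All 43 carriers matched the RefSeq gene table (GRCh38.p14) by gene ID. Groups were compared in pairs with limma 3.58.1 in R 4.3.3 (lmFit, eBayes, no replicate block, no filter on dim genes). A gene rose or fell where its p, adjusted by Benjamini-Hochberg, was 0.1 or less, and was called upregulated or repressed at a fold of at least 1.5 and p under 0.05 as well, after the cut-offs of the methods. The 2-tailed t-test with q-values of the methods was an alternative, as were other choices of clusters, normalization, filter, prior, block and the leaving out of arrays. Procedures were tested on simulated data. Values on every array are given for the 6 largest rises and falls after knockdown, the 5 smallest p with the plasmid, the 3 largest rises and falls between the controls, the 4 largest differences of effects and 4 sets of close relatives. Members, gene lists and roles were chosen with earlier results of these data known. The second clusters of 3 genes were examined after the data were seen. The replicates are called biological, without saying whether they were separate cultures, so p-values measure the spread between these arrays.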

Additional observations from a re-analysis of the deposited data

Results flagged for a closer look

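The effect of ERβ2 knockdown and the effect of ERβ2 overexpression differed for 14 of the 43 carriers by the test of the difference itself (limma over all 12 arrays, adjusted p of at most 0.1), against 26.4% of all genes. Changes of opposite sign enlarge this difference, so a pass says only that the 2 changes were unequal. The knockdown effect minus the overexpression effect was above 0 for SLC25A15 (0.77 on the log2 scale), SLC25A30 (0.66), SLC25A26 (0.62), SLC25A28 (0.45), SLC25A37 (0.33), SLC25A13 (0.31) and SLC25A1 (0.25). It was below 0 for SLC25A40 (−0.77), SLC25A14 (−0.67), SLC25A48 (−0.44), SLC25A33 (−0.43), SLC25A17 (−0.28), SLC25A3 (−0.25) and SLC25A5 (−0.24). The difference of SLC25A1 was 0.13 and did not pass when the arrays were centred on their medians (adjusted p = 0.163), and that of SLC25A5 was −0.15 and did not pass after a new quantile normalization (adjusted p = 0.107). SLC25A48 passed narrowly (adjusted p = 0.0619) and was the only gene of the 14 that had passed in neither of the single comparisons, with −0.26 after knockdown and 0.18 with the ERβ2 plasmid. Its call was lost without control siRNA replicate 2 (adjusted p = 0.136), ERβ2 siRNA replicate 3 (0.142), EV replicate 2 (0.128) or 3 (0.101), or ERβ2 plasmid replicate 3 (0.130). Both arms differ in time, reagent and nucleic acid as well as in ERβ2, which cannot be told apart. No outliers were looked for, since each group holds 3 arrays.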

How the results depend on the processing

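No carrier that had passed or was described on every array changed direction under the alternatives tried, and 0 carriers passed with the ERβ2 plasmid under every one. Counts in this section are of carriers, and of differences of effects, that passed the test. Asking for a fold of at least 1.5 as well left 3 higher and 2 lower carriers after knockdown. It left 1 higher and 0 lower for EV against control siRNA, and 3 differences of effects above 0 and 2 below. At this cut-off 3.25% of all genes were higher and 1.26% lower after knockdown. For EV against control siRNA the shares were 5.57% and 1.3%, and for the differences 4.04% and 1.46%. Centring each array on its median over the 17958 genes moved the median change of all genes. It came to −0.12 after knockdown, −0.21 for EV against control siRNA and −0.14 for the difference. This gave 8 higher and 21 lower carriers, 8 higher and 20 lower, and 6 differences above and 15 below 0. Of all genes, 2290 were higher and 6157 lower, 2211 higher and 10301 lower, and 1806 above and 4834 below 0. A new quantile normalization and cyclic loess each gave 11 differences below 0, with 2506 and 2205 of all genes. Over the fits that left out 1 array, 8 to 10 carriers rose and 7 to 10 fell after knockdown, 11 to 12 were higher and 5 to 11 lower with EV (5 without control siRNA replicate 2), and 7 to 8 differences were above and 6 to 7 below 0. Of all genes, 2681 to 3363 rose and 2164 to 2879 fell after knockdown in these fits. With EV 2808 to 3331 were higher and 2884 to 4018 lower, and 2286 to 2805 differences were above and 1551 to 2015 below 0. Among single carriers, 78 calls were lost and 4 gained under the other settings, where 625 verdicts, passed or not, were unchanged. These settings include the stricter cut-offs, an adjusted p under 0.05 and a fold of at least 1.5, which can only remove calls. On leaving out an array, 44 calls were lost and 412 verdicts were unchanged. With the replicate number as a block, 8 carriers rose and 11 fell after knockdown, 0 passed with the plasmid, 12 were higher and 9 lower with EV, and 7 differences were above and 7 below 0. Of all genes in the block fits, 3437 rose and 3455 fell after knockdown and 0 passed with the plasmid. With EV 3121 were higher and 3426 lower, and 2513 differences were above and 1848 below 0. Arrays of the same number correlated in their deviations by 0.0138 to 0.223 in the siRNA groups, by −0.137 to 0.104 in the plasmid groups and by −0.239 to 0.125 between the controls, and not every array correlated best with its own number, so the numbers were not taken to pair arrays. The causes were not tested. The number of arrays, 3 a group, limits the precision, and 8 carriers had a mean log2 value under 5.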
